A study of Mus musculus with 4 samples.

Results

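The genes described here encode the subunits of the proteasome and its partners, taken as the rows of the deposited FPKM table whose symbol begins with Psma, Psmb, Psmc, Psmd, Psme, Psmf or Psmg and a digit, without the 3 immunoproteasome subunits. There were 46 such rows among 14226, and they carried 44 symbols. A second, low row was listed for Psma4 (4.09 to 4.17 FPKM) and for Psmd14 (2.12 to 3.03 FPKM), and the row of Psmc3ip (5.95 to 8.95 FPKM) belongs to a meiotic recombination factor that is no proteasome subunit. The remaining 43 genes were 14 core subunits, 17 regulatory particle subunits and 12 activators, inhibitors and assembly chaperones. Psma8 and Psmb11, the testis and thymus variants of core subunits, were not analysed here. All 46 rows entered the fit, since no row was removed by the filter on low values.

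The proteasome is the barrel-shaped protease that degrades ubiquitin-tagged proteins in the cytosol and nucleus. Its core particle (20S) is a stack of alpha and beta rings, and the catalytic sites lie inside, on the beta subunits Psmb5, Psmb6 and Psmb7. The regulatory particle (19S) caps the core, with a ring of ATPases that unfolds the substrate and a set of non-ATPase subunits that bind and remove ubiquitin. In lymphocytes the products also feed antigen presentation on MHC class I molecules, and interferon gamma is known to exchange catalytic subunits for the immunoproteasome forms Psmb8, Psmb9 and Psmb10.

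Splenocytes, which are all the cells freed from the spleen, were taken from C57BL/6N mice of genotype wt (2 libraries) or the transgenic genotype vcS5 +/T (2 libraries). The title of the series speaks of mutated, active STAT5, a factor that cytokine receptors switch on to act in the nucleus, as a driver of T cell lymphoma. The deposited table calls both transgenic libraries line1, and neither the promoter of the transgene nor the age of the mice is given in the sources used here. The groups were described as biological replicates, and absolute read depth is unknown from FPKM (fragments scaled to transcript length and to the mapped total of the library). The comparison asks whether the transcripts of this housekeeping protease differ between spleens with and without the transgene.

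The 2 genotypes differed widely in cell type markers. Of 6 B cell markers, 6 fell, with a summed level of 2664 and 3240 FPKM in the wt pair against 1116 and 1078 in the vcS5 pair. Of 6 T cell markers, 3 passed as higher and 0 as lower (6 had an unadjusted p under 0.05, all higher), with sums of 553 and 780 FPKM in the wt pair against 1720 and 2351 in the vcS5 pair, and both CD8 T cell markers rose. Of 5 neutrophil markers 1 passed as lower by limma (5 had an unadjusted p under 0.05, all lower). Their sum was 5878 and 1780 FPKM in the wt pair against 963 and 923 in the vcS5 pair. Cd4 passed as lower, as did Lyz2 of 4 macrophage and monocyte markers. All 4 macrophage and monocyte markers were lower in vcS5, 2 of them at an unadjusted p under 0.05 by limma. Of the dendritic markers 0 of 3 passed by limma, and of the erythroid markers 0 of 4 (2 and 0 at an unadjusted p under 0.05). The 3 NK cell markers were split, with Eomes passing as higher (log2 change 2.19) and Ncr1 as lower (-3.17). Of 4 plasma cell markers 0 passed by limma, with 3 lower and 1 higher in sign. Pecam1, the 1 measured of 4 stroma and endothelium markers, was lower and did not pass by limma. Markers of B, T, myeloid and erythroid cells were detected in all 4 libraries. In such bulk RNA, fewer cells of a type and less RNA per cell cannot be told apart, and the part of cell composition in the values that follow was not tested.

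No proteasome row passed the test between vcS5 and wild type. By limma on log2(FPKM + 1), 0 of 46 rows passed an adjusted p of 0.05, while 8.72% of all rows in the table did, 4.59% as higher and 4.13% as lower in vcS5. Scaled to equal FPKM sums, the table gave 972 higher and 402 lower rows, beside 653 and 588 as deposited. At an unadjusted p under 0.05 there was 1 row, Psmb1, where 25.3% of all rows reached that level. Of the 46 rows, 0 had a q under 0.05 by the authors' deposited table, against 11.5% of all rows. The absence of a call does not show that levels were equal, so each change is given below with its 95% interval (moderated, by limma).

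The intervals were narrow for most members. For 39 of the 43 genes the interval lay inside a 2-fold change in either direction, where 67.1% of all rows did, and for 31 it lay inside 1.5-fold, against 27.2% of all rows. The 4 genes whose interval reached past 2-fold were Psmb5, Psmc3, Psmd4 and Psme1. Over the 43 genes the median log2 change was 0.11, beside 0.00 over all rows, and 32 of the 46 rows (69.6%) had a change above 0, beside 50.1% of all rows. The libraries of the groups did not overlap in 19 rows that were higher in vcS5 (26.9% of all rows were) and in 2 that were lower (27.5% of all rows were, and 54.4% in either direction).

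**Figure D1:**
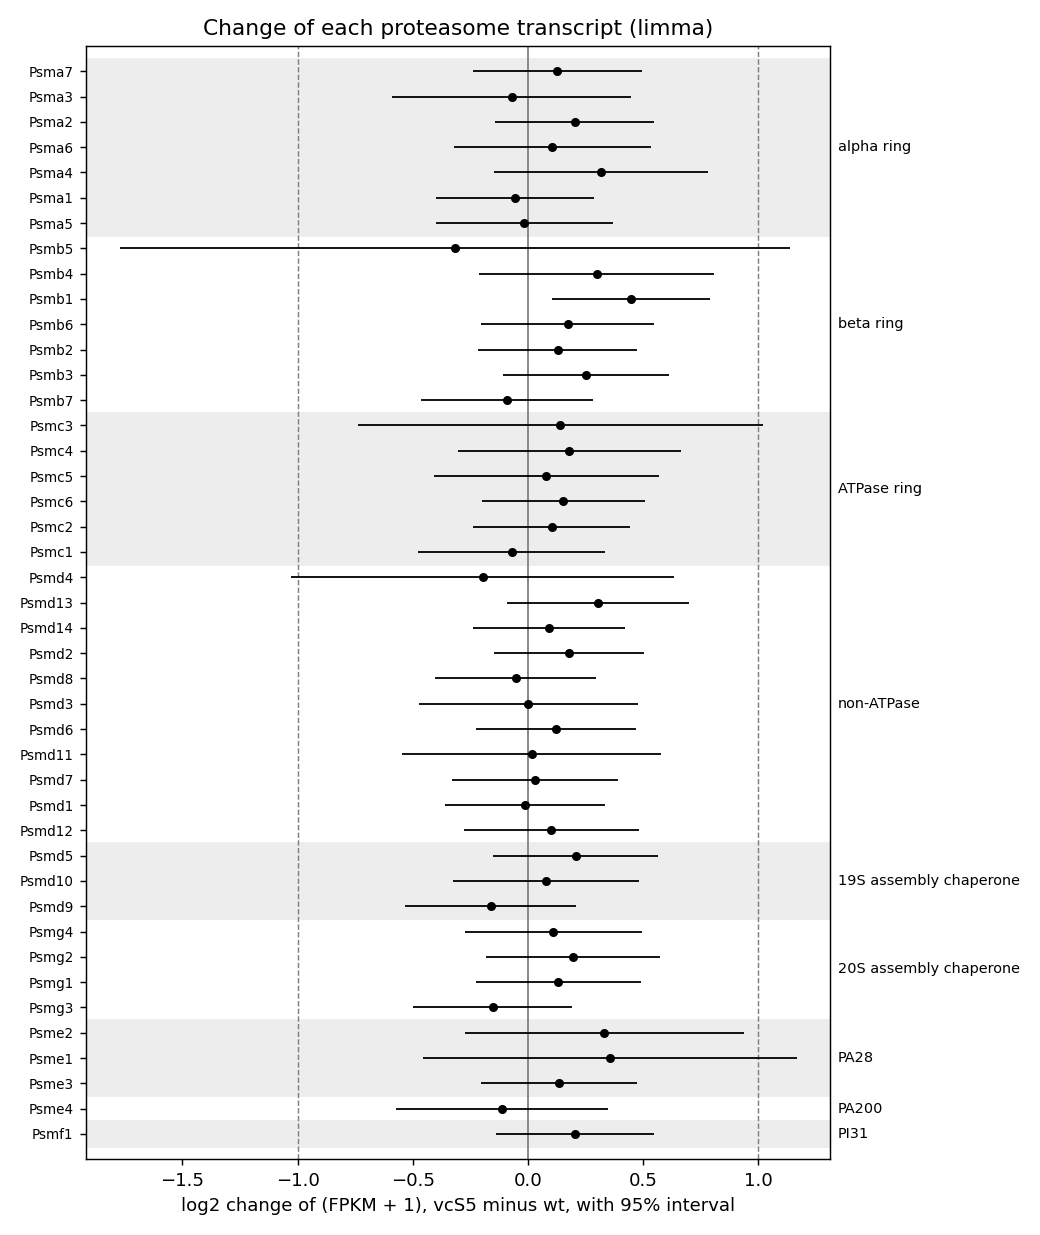
Log2 change of each of 43 proteasome transcripts on the log2(FPKM + 1) scale, vcS5 minus wild type, with moderated 95% intervals (2 libraries a group); dashed lines mark a 2-fold change. The interval of Psmb1 alone excludes 0 (0.11 to 0.79), none passed after adjustment, and Psmb5 has the widest interval (-1.77 to 1.14).

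Proteasome promoters were searched for 4 short words on both strands, in windows from 250 bases before to 50 bases after the RefSeq start (build GRCm38.p6). Of the 43 genes, 36 had a sequence there, with 39 windows. The STAT word TTCNNNGAA, which STAT5 dimers are known to bind, stood in 2 of the 39 windows, against 8.3% of all 32851 windows. The word TGACNNNGC, part of the antioxidant response element through which Nfe2l1 is known to raise proteasome transcription, stood in 6, against 12.4% of all. CCAAT stood in 12 (37.4% of all) and the interferon-type word, GAAA repeated after any 2 bases, in 5 (3.44% of all). No printed word overlaps another. The stretches printed here hold the response element word of 2 catalytic subunits, both STAT words, and 1 example each of the others. The word is in capitals, in either orientation, and each stretch reads 5′ to 3′ on the strand of the gene. The Psmd4 stretch also holds CCAAT on the other strand (ATTGG), left in lower case.
Psmb5: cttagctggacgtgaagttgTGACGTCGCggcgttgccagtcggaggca
Psmb6: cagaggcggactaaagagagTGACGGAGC
Psmd2: gcgcgtggccTTCTGGGAAaaggggcggt
Psmg1: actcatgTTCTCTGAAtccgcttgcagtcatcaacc
Psmd4: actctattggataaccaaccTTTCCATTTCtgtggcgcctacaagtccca
Psma1: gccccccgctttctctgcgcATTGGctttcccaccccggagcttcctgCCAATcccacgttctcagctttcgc
These lie at chr14:54618014-54618062 (minus strand) for Psmb5, chr11:70525328-70525356 (plus) for Psmb6, chr16:20651646-20651674 (plus) for Psmd2, chr16:95991175-95991210 (minus) for Psmg1, chr3:95042665-95042714 (minus) for Psmd4 and chr7:114276190-114276262 (minus) for Psma1. A match is a description of letters only. Of the genes with a STAT word, Psmd2 had a log2 change of 0.18 and Psmg1 of 0.13. Neither passed the test for a change, but no proteasome row did, so this says nothing about the word.

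In level, core subunit transcripts stood above those of the regulatory particle in every library. The median over the 14 core genes was 79.0 and 83.7 FPKM in the wild-type libraries and 92.2 and 96.3 FPKM in the vcS5 libraries. Over the 17 regulatory genes it was 47.2 and 53.2 FPKM in the wt pair against 50.6 and 55.7 in the vcS5 pair. The ratio of these medians was 1.67, 1.57, 1.82 and 1.73 in the same order, and both vcS5 ratios were above both wild-type ratios, by a gap smaller than the difference within either group. Of the core genes, 6 had a mean above the highest regulatory gene and 13 had a mean above the regulatory median. FPKM is scaled to transcript length, and the longest coding transcript had a median of 1162.5 bases for core and 1819 bases for regulatory genes in GENCODE vM21. Across the 31 genes, which are not independent replicates, Spearman's rho of length and mean FPKM was -0.27, and it was 0.16 within the core and -0.11 within the regulatory particle.

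**Figure D2:**
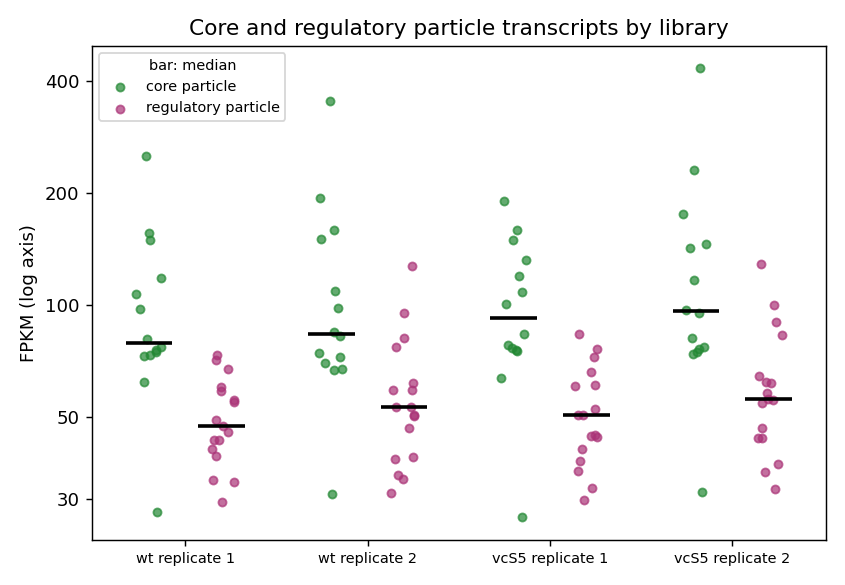
FPKM on a log axis of 14 core and 17 regulatory particle genes in each of the 4 libraries; each point is a gene and the bar is the median. The core median (79.0 to 96.3 FPKM) lies above the regulatory median (47.2 to 55.7 FPKM) in each library, and Psma5 is the lone core point near 30 FPKM.

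The changes of core and regulatory particle lay close together. The median log2 change was 0.13 over the core genes, of which 9 were above 0 and 5 below, and 0.09 over the regulatory genes, of which 13 were above 0 and 4 below. The mean log2 value of the core exceeded that of the regulatory particle by 0.89 and 0.83 in wild type and by 0.89 and 0.90 in vcS5. The smallest was that of wild-type replicate 2, and the vcS5 values were above both wild-type values, the nearest by less than the rounding of these values. The regulatory median was -0.01 when wild-type replicate 1 was left out and -0.02 when vcS5 replicate 2 was, while the core median was 0.11 and 0.07.

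The alpha ring forms the gate of the barrel, and its 7 genes had a median log2 change of 0.10. Psma7 was the highest of them, with 156 and 150 FPKM in the wt pair against 159 and 176 in the vcS5 pair (log2 change 0.13, interval -0.24 to 0.50). Its vcS5 values both lay above the wild-type values, the nearest pair by a margin smaller than the gap within either group. Psma5 was the lowest, with 27.7 and 31.0 FPKM in the wt pair against 26.8 and 31.3 in the vcS5 pair, and its groups overlapped. Psma4 had the largest change of the ring, with 72.9 and 67.4 FPKM in the wt pair against 101 and 76.0 in the vcS5 pair (a difference of 0.32 on the log2 scale with an SE of 0.183 and, by limma, an adjusted p of 0.358). Exons of Psma4 overlap AY074887 on the opposite strand, and reads from this kit carry no strand. The vcS5 replicates of Psma4 differed from each other by more than the means of the groups did. Its change was 0.12 when vcS5 replicate 1 was left out and 0.52 when vcS5 replicate 2 was. Psma2 went the same way at a smaller spread, with 97.4 and 98.2 FPKM in the wt pair against 108 and 117 in the vcS5 pair (log2 change 0.20). Psma1, Psma3 and Psma6 had log2 changes of -0.06, -0.07 and 0.10, with overlapping groups.

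The beta ring holds the proteolytic sites, and its 7 genes had changes from -0.32 to 0.45. Psmb1, a non-catalytic beta subunit (chromosome 17, 15475021 to 15499751 in GENCODE vM21, minus strand), came closest to a call. It had 107 and 109 FPKM in the wt pair against 150 and 146 in the vcS5 pair, so the groups stood apart and replicates lay close together. The ratio of means was 1.37, the log2 change 0.45 (SE 0.134, interval 0.11 to 0.79), the unadjusted p 0.0197 and the adjusted p 0.116 by limma. The authors' deposited table gives Psmb1 a log2 fold of 0.45 and a q of 0.0887. When every library was scaled to an equal FPKM sum, the median of all rows moved to 0.18, and Psmb1 then passed, with a log2 change of 0.64 and an adjusted p of 0.0466 by limma. Over all alternatives its adjusted p ran from 0.0466 to 0.343, the highest without wild-type replicate 1.

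Psmb5, which carries the chymotrypsin-like site and is the main target of bortezomib, was the most abundant and the most variable core gene. Its levels were 251 and 353 FPKM in the wt pair against 132 and 433 in the vcS5 pair. The vcS5 libraries thus gave both the lowest and the highest value, 3.28-fold apart. The log2 change was -0.32 (SE 0.571, interval -1.77 to 1.14, adjusted p = 0.793 by limma), and without vcS5 replicate 1 it turned to 0.54. Of 4 erythroid markers, 3 ranked the 4 libraries in the same order as Psmb5. Among them was Alas2, with 26.8 and 40.5 FPKM in the wt pair against 13.4 and 47.9 in the vcS5 pair. This order was not particular to Psmb5, since Psma5, Psmc3, Psmd7 and Psmd11 had it too, and its share over all rows was not counted. The part of erythroid cells in the Psmb5 values was not tested. GENCODE vM21 lists 4 pseudogenes named after Psmb5, Psmb6 and Psmb7, which can share reads with these genes, so the separate values of the 3 catalytic subunits are uncertain.

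The other catalytic subunits were steadier than Psmb5. Psmb6, with the caspase-like site, had 75.8 and 82.6 FPKM in the wt pair against 83.4 and 95.4 in the vcS5 pair (log2 change 0.17, interval -0.20 to 0.55). Psmb7, with the trypsin-like site, had 74.7 and 72.4 FPKM in the wt pair against 63.6 and 74.8 in the vcS5 pair (log2 change -0.09, interval -0.47 to 0.28). Psmb6 was thus higher in both vcS5 libraries, and the groups of Psmb7 overlapped. Exons of Psmb7 overlap Nek6 on the opposite strand. Of the structural beta subunits, Psmb4 had 150 and 194 FPKM in the wt pair against 191 and 231 in the vcS5 pair, with overlapping groups (log2 change 0.30). Psmb2 and Psmb3 had log2 changes of 0.13 and 0.25, and in both the vcS5 libraries were the higher pair.

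The catalytic subunits can be set beside the immunoproteasome subunits that replace them, none of which passed. Psmb8, the partner of Psmb5, had 188 and 209 FPKM in the wt pair against 254 and 286 in the vcS5 pair (log2 change 0.44, interval 0.04 to 0.85, adjusted p = 0.170 by limma). The ratio of Psmb8 to Psmb5 was 0.747 and 0.591 in the wt pair against 1.93 and 0.662 in the vcS5 pair, and the high value belonged to the library with the lowest Psmb5. The ratio of Psmb9 to Psmb6 stayed between 2.09 and 2.25 in the 4 libraries. Psmb10 relative to Psmb7 was 0.897 and 1.02 in the wt pair against 1.35 and 1.31 in the vcS5 pair, where both vcS5 values were above both wild-type values. Psmb10 itself had a log2 change of 0.37 (adjusted p = 0.200 by limma) and Psmb9 of 0.16 (adjusted p = 0.579 by limma).

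**Figure D3:**
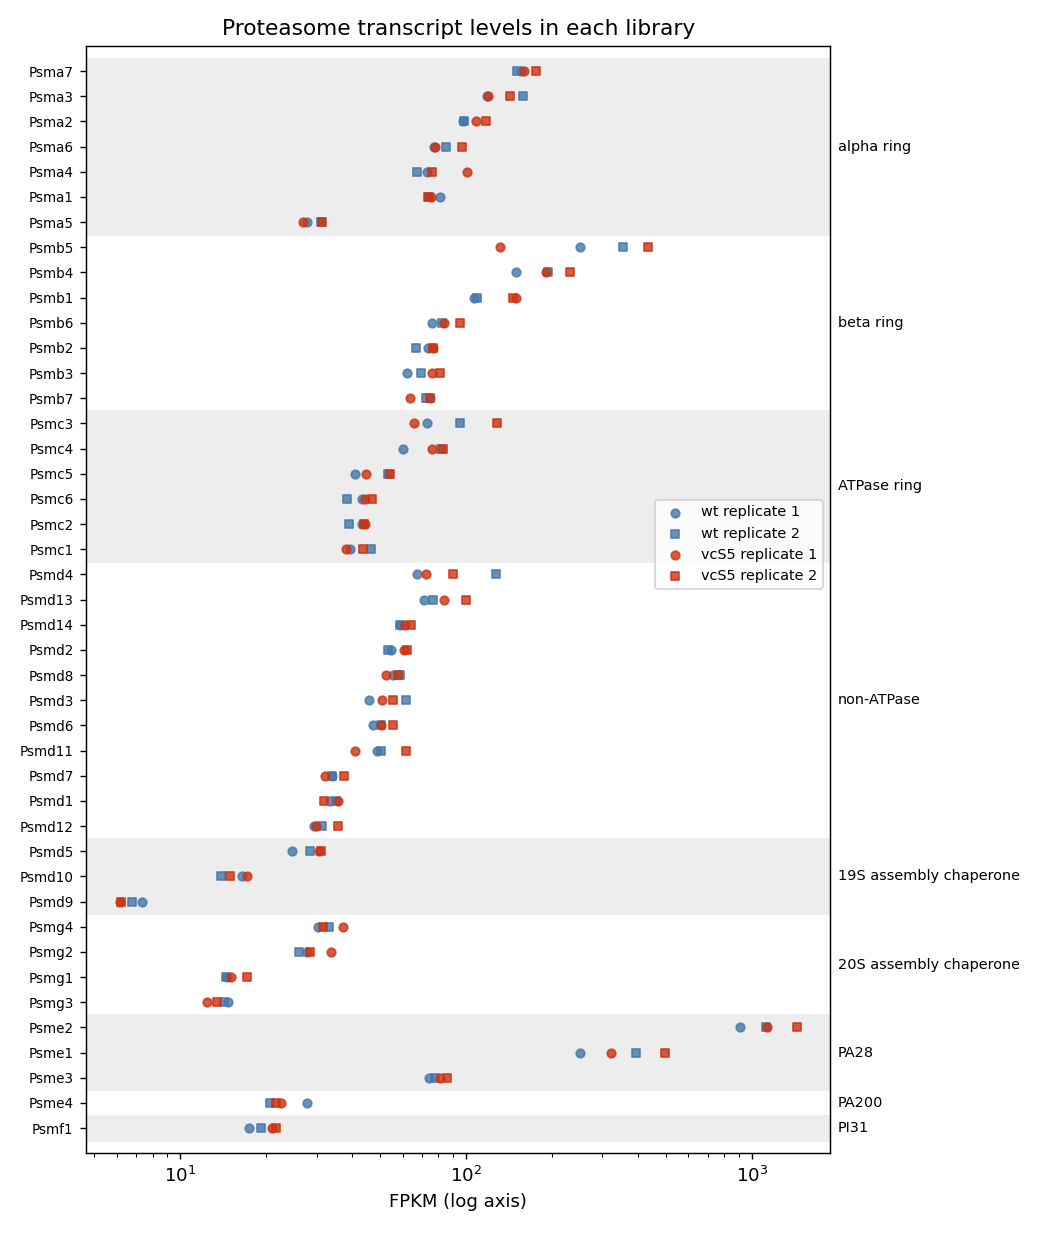
FPKM on a log axis of 43 proteasome genes in each of the 4 libraries, ordered by class and by mean level; blue is wild type, red is vcS5, circles are replicate 1 and squares replicate 2. Psme2 (912 to 1435 FPKM) is the highest, Psmd9 (6.16 to 7.34 FPKM) the lowest, and the 4 points of Psmb5 are the most spread out.

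The 6 ATPases form the ring that unfolds and threads substrates, and their mean levels ran from 41.9 FPKM for Psmc1 to 90.7 FPKM for Psmc3. Psmc1 had 39.3 and 46.6 FPKM in the wt pair against 37.9 and 43.7 in the vcS5 pair (log2 change -0.07). Psmc3 had 73.2 and 95.1 FPKM in the wt pair against 65.8 and 129 in the vcS5 pair, so that its vcS5 replicates were 1.96-fold apart (log2 change 0.14, interval -0.74 to 1.02). Its direction turned without vcS5 replicate 2, to -0.34, and without wild-type replicate 1, to -0.05. Exons of Psmc3 overlap Slc39a13 on the opposite strand, and reads from this kit carry no strand. Psmc4 had the largest change of the ring, with 60.2 and 81.7 FPKM in the wt pair against 76.0 and 83.1 in the vcS5 pair (log2 change 0.18, interval -0.31 to 0.66), and its groups overlapped. Leaving out wt replicate 1 turned the Psmc4 change to -0.04, below the 0.24 of Psmc6, and leaving out wt replicate 2 gave 0.40. Psmc2, Psmc5 and Psmc6 had log2 changes of 0.10, 0.08 and 0.15.

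The 11 non-ATPase subunits had a median log2 change of 0.03, with 8 above 0 and 3 below. Psmd14, the deubiquitinase that removes ubiquitin chains, had 58.7 and 58.9 FPKM in the wt pair against 60.9 and 64.4 in the vcS5 pair (log2 change 0.09, interval -0.24 to 0.42). Its 4 libraries lay within 1.10-fold of each other. Psmd2, the scaffold that docks ubiquitin-like domains, had 54.8 and 53.2 FPKM in the wt pair against 60.6 and 61.9 in the vcS5 pair (log2 change 0.18, interval -0.15 to 0.50), with separate groups and close replicates. Psmd4, a ubiquitin receptor, was highest of the class, with 67.2 and 128 FPKM in the wt pair against 72.5 and 89.7 in the vcS5 pair. Here the wild-type replicates were 1.90-fold apart and enclosed both vcS5 values (log2 change -0.20, interval -1.03 to 0.63), and without wild-type replicate 2 the change was 0.26.

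Among the other non-ATPases, Psmd13 had the largest change, with 71.1 and 76.8 FPKM in the wt pair against 83.7 and 99.9 in the vcS5 pair (log2 change 0.30, interval -0.09 to 0.70, adjusted p = 0.302 by limma). Both vcS5 libraries were above both wild-type libraries, and its exons overlap those of Sirt3 on the opposite strand. Psmd12 was the lowest of the class, with 29.5 and 31.3 FPKM in the wt pair against 29.9 and 35.6 in the vcS5 pair, and its groups overlapped. The row of Psmd1 merges the identifiers of Psmd1, Armc9 and Gm21972, so that its log2 change of -0.01 is not that of Psmd1 alone. Psmd3, Psmd6, Psmd7, Psmd8 and Psmd11 had changes between -0.05 and 0.12.

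The PA28 activators open the gate of the core without ATP, and Psme1 and Psme2, both known to be induced by interferon gamma, form a joint ring. Psme2 was the most abundant proteasome transcript, with 912 and 1123 FPKM in the wt pair against 1129 and 1435 in the vcS5 pair (log2 change 0.33, interval -0.27 to 0.94, adjusted p = 0.464 by limma). The lower vcS5 value exceeded the higher wild-type value by little, while replicates were 1.23-fold apart in wild type and 1.27-fold in vcS5. The Psme2 change was 0.05 under quantile normalization (adjusted p = 0.901 by limma) and 0.16 to 0.50 with 1 library left out. Psme1 had 250 and 392 FPKM in the wt pair against 322 and 497 in the vcS5 pair (log2 change 0.35, interval -0.46 to 1.17), and its groups overlapped. Its change was 0.03 when wt replicate 1 was left out, 0.04 when vcS5 replicate 2 was, 0.68 when wt replicate 2 was and 0.67 when vcS5 replicate 1 was. The 2 genes lie 5911 bases apart on chromosome 14, Psme1 at 55578123 to 55581529 on the plus strand and Psme2 at 55587441 to 55591113 on the minus strand. Exons of Psme1 overlap Emc9, and GENCODE vM21 also lists Psme2b, a gene named after Psme2, so both values are uncertain to the extent that reads were shared. Psme3, the nuclear PA28 gamma, had 74.0 and 78.0 FPKM in the wt pair against 81.3 and 85.7 in the vcS5 pair (log2 change 0.13). Psme4, the PA200 activator, had 27.7 and 20.7 FPKM in the wt pair against 22.5 and 21.6 in the vcS5 pair (log2 change -0.11), with both vcS5 values inside the wild-type range.

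Psmf1 and the assembly chaperones had mean levels from 6.62 FPKM for Psmd9 to 33.0 FPKM for Psmg4, below the core median. Psmf1, the inhibitor PI31, had 17.4 and 19.2 FPKM in the wt pair against 20.9 and 21.6 in the vcS5 pair (log2 change 0.20, interval -0.14 to 0.55). Of the chaperones that build the core, Psmg1, Psmg2, Psmg3 and Psmg4 had log2 changes of 0.13, 0.19, -0.15 and 0.11. Of those that build the regulatory particle, Psmd5 had 24.7 and 28.5 FPKM in the wt pair against 30.5 and 31.0 in the vcS5 pair (log2 change 0.21). Psmd9 had 7.34 and 6.76 FPKM in the wt pair against 6.16 and 6.22 in the vcS5 pair (log2 change -0.16), and Psmd9 and Psmg3 were the 2 members whose vcS5 libraries both lay below wild type. Exons of Psmd9 overlap Gm26745 and those of Psmg3 overlap Gm26938. Such an overlap with another gene was found for 11 of the 43 genes. Psmd10, also known as gankyrin, had a log2 change of 0.08 with overlapping groups.

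The changes between genotypes can be set beside the differences between replicates, though a change compares group means and a replicate difference compares single libraries. The median size of the log2 change over the 43 genes was 0.13, and the median difference between the replicates was 0.13 in wild type and 0.18 in vcS5. Over all rows these medians were 0.26, 0.20 and 0.21. The change exceeded the larger of the replicate differences in 11 of the 43 genes, where 43.6% of all rows showed this. Between the highest and the lowest of the 4 libraries, 36 genes differed by less than 1.5-fold and 1, Psmb5, by more than 2-fold.

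**Figure D4:**
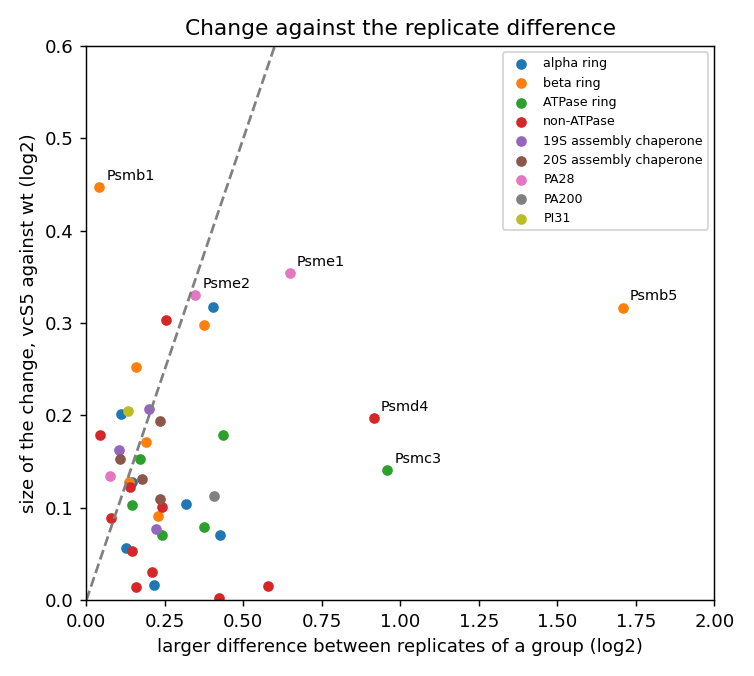
Size of the log2 change between vcS5 and wild type against the larger of the 2 replicate differences, for 43 proteasome genes coloured by class; above the dashed line the change exceeds both replicate differences. Psmb1 stands far above the line, 11 genes in all are above it, and Psmb5, Psmc3 and Psmd4 lie far to its right.

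Among the other genes of the pathway, 0 of 31 measured genes passed the test by limma, with 2 at an unadjusted p under 0.05, and the authors' deposited table lists 1 with q under 0.05. Over all rows these shares were 8.72%, 25.3% and 11.5%. Their median log2 change was 0.10, with 23 above 0, as 50.1% of all rows were, and 8 below. The gene with that q was Ngly1, whose product activates Nfe2l1 by removing its sugar chains. It had 19.1 and 17.1 FPKM in the wt pair against 30.8 and 27.7 in the vcS5 pair (log2 change 0.66, interval 0.30 to 1.03, adjusted p = 0.0547 by limma). Nfe2l1, the transcription factor of proteasome genes, had 45.9 and 54.7 FPKM in the wt pair against 36.1 and 42.8 in the vcS5 pair (log2 change -0.34, interval -0.76 to 0.08, adjusted p = 0.278 by limma). Both vcS5 libraries were thus below both wild-type libraries for Nfe2l1 and above them for Ngly1. Pomp, which matures the core, had 100 and 103 FPKM in the wt pair against 110 and 118 in the vcS5 pair (log2 change 0.17). Ubb and Rps27a, which encode ubiquitin, had log2 changes of -0.02 and 0.44, and the ubiquitin-activating enzyme Uba1 had 0.37.

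Other large complexes had higher medians in the same fit. The 80 cytosolic ribosomal protein rows had a median log2 change of 0.47, with 29 at an unadjusted p under 0.05 and 0 past the adjusted test by limma. The 78 oxidative phosphorylation rows had a median of 0.24, with 15 at that level and 1 past the test. For the 46 proteasome rows these values were 0.11, 1 and 0, and of all rows 25.3% had an unadjusted p under 0.05 and 8.72% passed. The differences between the gene sets were not tested.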

How the data were processed

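RNA sequencing (50 bp single-end reads, TruSeq RNA v2 libraries, a kit that does not mark strand) measured splenocytes in 2 wild-type and 2 vcS5 libraries, per the labels' protocols. The authors deposited FPKM per library, with a group FPKM, a log2 fold change, a p-value and a q-value, per the file headers. The submitters' processing notes name the build mm10 and the tools Cuffdiff 2.1.1, Cufflinks, TopHat2 2.0.9 and Bowtie2 2.1.0. Settings are not given in the sources used here. Every row has a mean FPKM of at least 1, so the planned filter removed none, and no columns of other samples were present.

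Values were taken as log2(FPKM + 1), which understates changes of low rows. They were fitted with limma 3.58.1 (R 4.3.3) on all 14226 rows, with the variance trend. Tests were two-sided, p-values were adjusted by Benjamini-Hochberg, and 0.05 was the threshold. Intervals are 95% moderated ones. Precision is limited by 2 libraries a group, and without read counts no counting interval is given. The fit was also run on simulated libraries with independent noise, and no result of that run is used here. For Psma4 and Psmd14 the more abundant row stands for the gene, a choice made after the values were seen. Members, classes and lists were chosen with earlier results of these data known. Named genes are those past the threshold, the 3 largest changes and the highest and lowest level of each class, the catalytic and ubiquitin-binding subunits, Psme1, Psme2, Psmd14, and, of the pathway list, genes past the threshold with Psmb8, Psmb9, Psmb10, Nfe2l1 and Pomp; Ngly1, Psma1, Uba1, Ubb and Rps27a were named after their values were seen, and other members are given by value or range. Values of 2 listed genes are not reported here. Positions come from GENCODE vM21 (GRCm38, the mm10 build). Alternatives covered the pseudocount, the filter, the scaling, the variance trend, the replicate block, the authors' comparison and each library left out.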

Additional observations from a re-analysis of the deposited data

How the results depend on the processing

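No proteasome row passed by limma under any alternative but 1: with equal FPKM sums the count of higher rows was 1 (Psmb1). There the core median was 0.32 and the regulatory median 0.28, as the median of all rows rose to 0.18. Relative to all rows they were 0.15 and 0.11, against 0.13 and 0.09 before. Alternatives were written out gene by gene for 35 named genes, and the sign turns given are among these. Over all 46 rows, 44 were above 0 with equal sums, 27 with sums that leave out the 10 most abundant rows and 26 to 37 with 1 library left out, against 32. With equal sums the named genes that turned were Psma5 (0.17), Psmb7 (0.10), Psmc1 (0.12), Psmd9 (0.00674), Psme4 (0.0743) and Psmg3 (0.0292). With sums that leave out the 10 most abundant rows, of the named genes Psmd10 turned, to -0.00427. With 1 library left out, 0 proteasome rows passed, the lone library of a group being assumed to vary like the others. The whole table then gave 52 to 164 higher rows against 653 and 19 to 81 lower against 588. The difference of the core and regulatory medians was 0.0156 to 0.117, against 0.04, with 0.117 when wt replicate 1 and 0.0861 when vcS5 replicate 2 was left out; the cause was not tested. Without 1 library, the named genes that turned were Psmc3 (-0.34 to 0.62), Psmc4 (-0.0383 to 0.395), Psme4 (-0.32 to 0.0910), Psma5 (-0.12 to 0.0916), Psmc1 (-0.19 to 0.0495), Psmd10 (-0.0347 to 0.19), Psmd4 (-0.65 to 0.26), Psmb5 (-1.17 to 0.54), Psmb7 (-0.21 to 0.0233), Psmg4 (-0.00697 to 0.23) and Psmd12 (-0.0203 to 0.22). With the replicate block 0 proteasome rows passed, 6 had an unadjusted p under 0.05, and the lowest adjusted p was 0.0719 (Psmb1, limma). The whole table then gave 579 higher and 449 lower rows. Deviations of same-numbered libraries correlated at 0.18 across all rows and 0.53 across proteasome rows. Replicate 2 was above replicate 1 in 29 of the 43 genes in wild type and in 34 in vcS5. The labels do not say whether libraries of the same number share a litter or day. With 2 pairs, a shared batch was not tested. The filter on low values removed no row, so leaving it out gave the same fit.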
